A study of Mus musculus with 11 samples.

Results

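Serum amyloid A, lipocalin 2, calprotectin, haptoglobin and lactoferrin are secreted or cytosolic proteins of the acute-phase and antimicrobial response, and the 8 mouse genes Saa1, Saa2, Saa3, Lcn2, S100a8, S100a9, Hp and Ltf encode them. The genes were chosen by name from a list drawn up with earlier results of these data known, although the rule itself uses no measured value. They make up 8 of the 43346 genes in the count table. Colonic polyA RNA was compared between 5 germ-free and 6 humanized mice, all male Swiss Webster mice studied at 8–10 weeks of age. Germ-free mice received no microbiota. Humanized mice were born germ-free and were gavaged at 4–5 weeks of age with 300 μL of stool suspension from 1 human donor, so they stand for the microbiota of 1 person after 4–5 weeks in the mouse gut. The mice of each group were separate animals. Wild-type mice with their own microbiota were not analysed here.

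Serum amyloid A proteins are apolipoproteins that rise in blood during infection, and in the intestine the epithelium makes them in contact with bacteria and under the cytokine IL-22. The other proteins withhold metals or haem from microbes: lipocalin 2 binds the bacterial siderophore enterobactin, lactoferrin binds iron, haptoglobin captures free haemoglobin, and the calprotectin subunits S100A8 and S100A9 bind zinc, manganese and calcium. Neutrophils are a rich source of calprotectin, lactoferrin and lipocalin 2, and faecal calprotectin, lipocalin 2 and lactoferrin are used as markers of intestinal inflammation.

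The 3 serum amyloid genes lie in 1 cluster on chromosome 7 (mm10), and their reference sequences bear on how far their reads can be told apart. Alleles of the Swiss Webster mice were not examined. In the deposited table, Saa3 spans chr7:46711998-46715676, Saa1 spans chr7:46740501-46742980 and Saa2 spans chr7:46751833-46754314. Saa1 and Saa3 are on the minus strand and Saa2 is on the plus strand in the GENCODE annotation of GRCm38. The first 150 coding bases of each are shown here because this stretch holds the difference between the near-identical Saa1 and Saa2 and the distant Saa3, with capitals marking bases that differ from Saa1.
Saa1: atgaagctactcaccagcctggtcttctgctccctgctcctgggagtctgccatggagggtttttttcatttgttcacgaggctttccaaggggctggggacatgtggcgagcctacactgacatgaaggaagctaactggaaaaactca
Saa2: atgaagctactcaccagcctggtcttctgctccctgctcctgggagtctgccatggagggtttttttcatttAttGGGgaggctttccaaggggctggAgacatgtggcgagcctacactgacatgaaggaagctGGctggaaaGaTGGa
Saa3: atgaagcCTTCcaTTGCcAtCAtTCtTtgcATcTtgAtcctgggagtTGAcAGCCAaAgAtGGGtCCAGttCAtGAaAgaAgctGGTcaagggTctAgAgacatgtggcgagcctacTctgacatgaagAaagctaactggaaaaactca
In this stretch Saa2 differed from Saa1 at 11 bases and Saa3 at 49. Over the whole coding sequence of 366 bases, Saa1 and Saa2 shared 348 bases (95.1% identity), while Saa3 shared 73.0% with Saa1 and 71.3% with Saa2. None of the 509 windows of 101 bases in the Saa1 transcript, the length of a read, occurred unchanged in the Saa2 transcript, and 22 of them (4.32%) came within 2 mismatches. Saa1 and Saa2 are therefore also given as a sum, since a share of their reads could be placed on either gene. None of the 8 genes shares exon bases with another gene in the GENCODE annotation.

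The upstream regions of Saa1 and Saa2 are shown because their likeness extends beyond the coding sequence. Each is the 250 bases before the RefSeq start (GRCm38.p6), at chr7:46742981-46743230 on the minus strand for Saa1 and at chr7:46751583-46751832 on the plus strand for Saa2, with capitals at bases that differ between them.
Saa1 upstream: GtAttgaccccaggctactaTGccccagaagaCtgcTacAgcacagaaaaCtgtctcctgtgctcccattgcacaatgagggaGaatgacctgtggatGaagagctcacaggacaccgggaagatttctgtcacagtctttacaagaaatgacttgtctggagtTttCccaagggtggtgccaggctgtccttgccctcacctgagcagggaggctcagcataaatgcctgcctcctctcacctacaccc
Saa2 upstream: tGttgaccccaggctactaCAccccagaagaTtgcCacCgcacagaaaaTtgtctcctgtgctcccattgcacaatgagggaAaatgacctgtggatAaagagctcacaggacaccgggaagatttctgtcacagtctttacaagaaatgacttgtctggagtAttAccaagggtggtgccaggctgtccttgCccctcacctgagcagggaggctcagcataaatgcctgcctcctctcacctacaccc
These regions were identical in 238 of 251 aligned positions (94.8%), with 11 substitutions and 2 gaps. The Saa1 and Saa3 regions were identical in 48.5% of aligned positions. A C/EBP motif (TTGCNNAA, both strands) was present between 250 bases before and 50 after the start in 6 of the 7 genes with a RefSeq entry, in all but S100a8, against 10.8% of 32851 RefSeq promoters. In Saa1 it lay from −182 to −175. The STAT motif TTCNNNGAA (8.30% of promoters) and the NF-kB consensus (4.51%) matched none of the 7 windows. A match describes letters and not a bound site.

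Between 49097005 and 64148538 reads per germ-free mouse and between 39125290 and 54219854 reads per humanized mouse were counted on genes. Expression is given as RPKM, the reads of a gene scaled to its length and to the size of its library, after TMM scaling of the libraries. A positive log2-fold change (LFC) means a higher level in humanized mice, and a gene was called at FDR below 0.01 in edgeR's exact test over the 19863 genes that passed a filter on low counts. Of all tested genes, 1827 were called higher (9.20%) and 1999 were called lower (10.1%) in humanized mice. That split became 773 higher and 3609 lower without TMM scaling, and 496 higher and 2877 lower when libraries were scaled to 11 epithelial genes, which moved the median LFC of all genes to −0.18 and −0.24. Epithelial markers such as Krt18 and Elf3 were abundant in every mouse, with all 11 measured and a summed level of 9272 to 12381 CPM (TMM-scaled counts relative to library size) in germ-free and 10603 to 14801 CPM in humanized mice. All 11 had an LFC above 0 (median 0.27), and Krt18 (LFC 0.48), Elf3 (LFC 0.45) and Lgals4 (LFC 0.46) were called higher. Smooth muscle markers, led by Acta2, were lower in humanized mice for 9 of 9 genes (median LFC −2.03), with summed levels of 814 to 2338 CPM against 94.8 to 842 CPM. Without germ-free mouse 4, which had the highest sum, 6 of the 9 were called. The methods name colonic tissue and give no segment or wall layers for these libraries. Fewer cells of a type, less RNA per cell and a difference in the tissue taken therefore cannot be told apart.

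Of the 8 genes, 6 passed the filter and 2 of these were called higher in humanized mice, Ltf and Saa3. Ltf reached the filter's level in humanized mice only. None was called lower by the exact test, by edgeR's quasi-likelihood test or by DESeq2, and Saa2 alone was lower at an unadjusted p below 0.05 in each of the 3. The groups did not overlap in CPM for 1 gene, Ltf, which was higher, beside 8.67% of all tested genes with separate groups and higher levels in humanized mice and 9.73% with lower levels. The median LFC of the 6 genes was −0.15, and that of all tested genes was 0.01. Their levels spanned a wide range, from Saa1 among the most abundant transcripts of the colon to Ltf and S100a8 at a few reads per library.

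**Figure D1:**
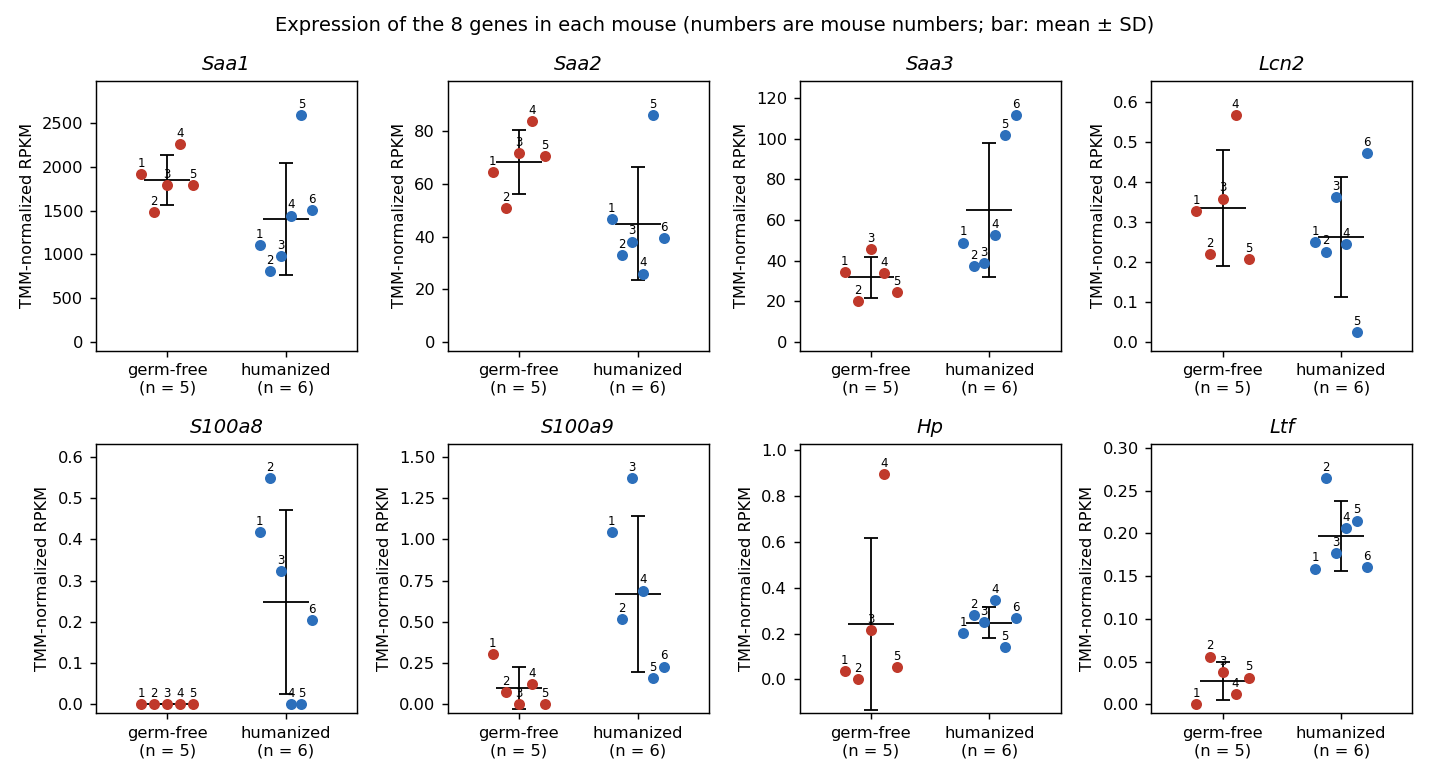
TMM-normalized RPKM (linear axes) of each gene in 5 germ-free (red) and 6 humanized (blue) mice, numbered by mouse, with the mean ± SD of each group. Ltf alone separated the groups, humanized mouse 5 stood above every germ-free mouse for Saa1, Saa2 and Saa3, and germ-free mouse 4 stood apart for Hp.

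Saa1 was the dominant serum amyloid transcript in every mouse. Its RPKM was 1916, 1484, 1794, 2266 and 1795 in germ-free mice 1 to 5, and 1105, 810, 984, 1444, 2595 and 1510 in humanized mice 1 to 6. In humanized mice 4 of the 6 values lay below every germ-free mouse and 1, that of mouse 5, lay above all of them, so the groups overlapped. The means were 1851 ± 281 RPKM (SD, n = 5) and 1408 ± 640 RPKM (SD, n = 6), with an LFC of −0.39 (standard error 0.25, FDR = 0.248), which was not called. Saa1 ranked 15th by mean RPKM among the tested genes in germ-free mice and 26th in humanized mice. It made up 94.1% to 95.6% of the reads of the 3 serum amyloid genes in germ-free mice and 91.6% to 95.2% in humanized mice.

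Saa2, the neighbouring paralog, had its highest value in the same mouse of each group as Saa1, at a lower level. Its RPKM was 64.6, 50.7, 71.8, 83.9 and 70.6 in germ-free mice 1 to 5, and 46.7, 33.0, 38.04, 25.9, 86.2 and 39.5 in humanized mice 1 to 6. Of the humanized mice, 5 lay below every germ-free mouse and mouse 5 lay above all of them. The means were 68.3 ± 12.1 RPKM (SD, n = 5) and 44.9 ± 21.4 RPKM (SD, n = 6), an LFC of −0.61 (standard error 0.25, FDR = 0.0627). Saa1 and Saa2 summed into 1 gene had an LFC of −0.40 (FDR = 0.234).

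Humanized mouse 5 decided the call for both genes. Without it the LFC was −0.66 for Saa1 (FDR = 0.000736) and −0.90 for Saa2 (FDR = 4.37e-07), and both were called lower. This library also had the lowest smooth muscle marker sum of all mice (94.8 CPM), an epithelial sum of 14626 CPM and the lowest neutrophil marker sum (2.23 CPM), and the part of these in the Saa values was not tested. Relative to 11 epithelial genes, the LFC was −0.70 for Saa1 (FDR = 0.00905) and −0.89 for Saa2 (FDR = 0.00143), each called lower with all mice included. Taken from the shifted median of all genes under that scaling, these are −0.46 and −0.65.

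Saa3, which macrophages, fat and epithelium can express, went the other way. Its RPKM was 34.3, 20.1, 45.6, 34.0 and 24.3 in germ-free mice 1 to 5, and 48.8, 37.2, 38.6, 52.4, 102 and 112 in humanized mice 1 to 6. Humanized mice 5 and 6 were highest, 4 of 6 humanized mice lay above every germ-free mouse, and the other 2 lay inside the germ-free range. The means were 31.7 ± 9.92 RPKM (SD, n = 5) and 65.1 ± 33.0 RPKM (SD, n = 6), and Saa3 was called higher (LFC 1.04, standard error 0.32, FDR = 0.00773). The call did not hold with edgeR's quasi-likelihood test (FDR = 0.0298) or DESeq2 (FDR = 0.0171), nor without humanized mouse 5 (LFC 0.87, FDR = 0.0207) or 6 (LFC 0.81, FDR = 0.0299). Without both of these mice, a choice made after the data were seen, the LFC was 0.48 (FDR = 0.0799). It was also lost without germ-free mouse 1, 2, 4 or 5, with LFC values of 0.91 to 1.07. Macrophage and monocyte markers, of which all 14 were tested, had 2 genes lower (Mrc1 and Cd163) and none higher, with sums of 236 to 307 CPM in germ-free and 71.3 to 418 CPM in humanized mice. Neither was called lower without germ-free mouse 4 or humanized mouse 1, Cd163 was not without germ-free mouse 1 or 5 or humanized mouse 2, and Ly6c2 was called higher without humanized mouse 5.

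The balance between the paralogs within a mouse separated the groups, which no single Saa gene did. The reads of Saa1 and Saa2 together were 65.7, 86.9, 46.7, 78.7 and 87.5 times those of Saa3 in germ-free mice 1 to 5, and 26.9, 25.8, 30.1, 32.0, 30.0 and 15.8 times in humanized mice 1 to 6. Every humanized mouse was below every germ-free mouse. The log2 ratio was 6.15 ± 0.38 (SD, n = 5) in germ-free and 4.71 ± 0.37 (SD, n = 6) in humanized mice, a difference of −1.45 or a 2.73-fold lower ratio. The exact two-sided permutation test gave p = 0.00216, the smallest that 5 mice against 6 allow, and 0.00649 after Benjamini–Hochberg adjustment over 3 ratios. This ratio needs no scaling between libraries. It also kept its sign without any single mouse, between −1.60 and −1.30, and without humanized mice 5 and 6 (−1.32, exact permutation p = 0.0159).

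The ratio of Saa1 to Saa2 did not differ detectably between the groups. It was 24.8 to 29.4 in germ-free mice and 23.5 to 29.8 in humanized mice 1, 2, 3 and 5, while humanized mice 4 and 6 had 55.3 and 37.9. The mean log2 ratios were 4.75 ± 0.11 (SD, n = 5) and 4.96 ± 0.48 (SD, n = 6), a difference of 0.21 (exact two-sided permutation test, p = 0.429, adjusted 0.643).

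**Figure D2:**
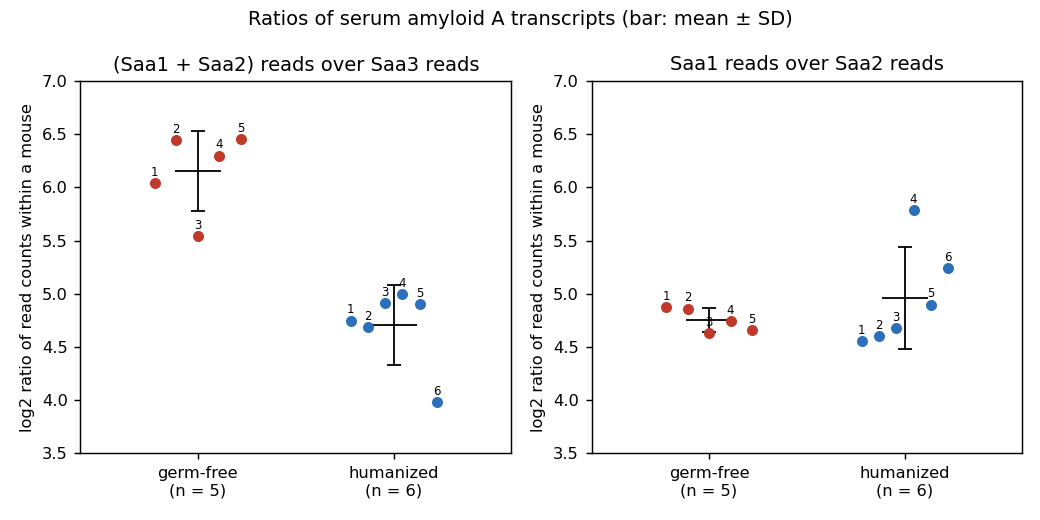
Log2 ratios of read counts within each mouse, for Saa1 plus Saa2 over Saa3 (left) and Saa1 over Saa2 (right), in germ-free (red, n = 5) and humanized (blue, n = 6) mice with mean ± SD. On the left all humanized mice, at 3.98 to 5.00, lie below all germ-free mice, at 5.54 to 6.45, and on the right the groups overlap.

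Lcn2, at chr2:32384633-32388252, was read at a low level in both groups. Its RPKM was 0.326, 0.219, 0.359, 0.568 and 0.207 in germ-free mice 1 to 5 (54, 30, 55, 93 and 38 reads), and 0.249, 0.226, 0.362, 0.245, 0.0241 and 0.472 in humanized mice 1 to 6 (24, 22, 45, 25, 3 and 62 reads). The groups overlapped, and humanized mouse 5, highest for Saa1, was lowest for Lcn2 with 3 reads. The means were 0.336 ± 0.146 RPKM (SD, n = 5) and 0.263 ± 0.150 RPKM (SD, n = 6), an LFC of −0.35 (standard error 0.48, FDR = 0.661). The LFC stayed negative and uncalled in all 22 alternatives, from −0.75 to −0.08.

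The calprotectin genes S100a8 (chr3:90669071-90670034) and S100a9 (chr3:90692632-90695721) failed the low-count filter, which asked for 0.186 CPM in 5 mice. S100a8 had no read in any germ-free mouse and 6, 8, 6, 0, 0 and 4 reads in humanized mice 1 to 6. A count of 0 over the germ-free group allows up to 0.00980 CPM (3 reads), and the pooled humanized level of 0.0931 CPM was 9.50 times that limit. If both mates of each fragment were counted, 3 fragments are 6 reads and that level was 4.75 times the limit. Neither is a lower bound on the fold. The humanized level carries no error here and pools 24 reads from 4 of the 6 mice. S100a9 had 10, 2, 0, 4 and 0 reads in germ-free mice 1 to 5, and 20, 10, 34, 14, 4 and 6 reads in humanized mice 1 to 6. Humanized mice 1, 2, 3 and 4 were above every germ-free mouse in RPKM, and mice 5 and 6 lay within the germ-free range. Its mean was 0.0999 ± 0.125 RPKM (SD, n = 5) and 0.669 ± 0.472 RPKM (SD, n = 6), or 6.69-fold. Germ-free mouse 1 held 10 of the 16 germ-free reads, and without it the germ-free mean was 0.0490 RPKM and the difference 13.7-fold. S100a9 passed the filter when any 1 germ-free mouse was left out, since fewer mice then had to reach its level, and it did so through 4 humanized and 0 germ-free mice. In these fits, which it entered only through the group in which it was high, it was called without mouse 1 (LFC 3.67, FDR = 0.000353) and was not called without any other 1 of them (LFC 2.35 to 2.76).

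The difference in mean CPM, tested by exact two-sided permutation after the counts had been seen, had p = 0.0606 for S100a8 and p = 0.0260 for S100a9. With no low-count filter, the exact test called both genes higher (FDR = 0.00722 for S100a8, for which no fold is given here because every germ-free mouse was at 0, and LFC 2.68, FDR = 0.00982 for S100a9). All 13 of their counts above 0 were even numbers, and over all genes a count of 2 was 1.21 times as frequent as a count of 1, and whether both mates of a fragment were counted is not given in the sources used here. The ratio of S100a8 to S100a9 could not be compared between the groups, since S100a8 had no read in germ-free mice and their ratios follow from the offset added to the counts.

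Neutrophil markers were read at low levels in both groups. Of 20 such genes 9 were tested, the exact test called none higher (1 at an unadjusted p below 0.05, and none called by the quasi-likelihood test or DESeq2) and 1, the protease gene Mmp9, lower (LFC −1.52, standard error 0.27, FDR = 2.41e-06). Without humanized mouse 5, the receptor genes Csf3r and Il1r2 were called higher. The summed level of the 20 genes was 7.60 to 9.91 CPM in germ-free and 2.23 to 10.1 CPM in humanized mice. Elane, with no read in any mouse, and Ly6g, with 2 reads in all mice together, were at or near 0. Other genes of the list were read in every mouse, with 768 reads of Csf3r, 301 of Retnlg, 269 of Cxcr2 and 259 of Il1r2 in total.

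Hp, at chr8:109575130-109579172, rested on 1 library. Its reads were 3, 0, 17, 75 and 5 in germ-free mice 1 to 5, and 10, 14, 16, 18, 9 and 18 in humanized mice 1 to 6. Germ-free mouse 4 was far above all others, germ-free mouse 3 lay within the humanized range, and germ-free mice 1, 2 and 5 lay below every humanized mouse in RPKM. The means were 0.240 ± 0.375 RPKM (SD, n = 5) and 0.248 ± 0.0696 RPKM (SD, n = 6), an LFC of 0.04 (standard error 0.81, FDR = 1). Without germ-free mouse 4 the LFC was 1.67 (FDR = 0.0413), and it was negative without germ-free mouse 1, 2 or 5 or humanized mouse 4, at −0.27 to −0.07. Germ-free mouse 4 also had the most reads of some fat genes, with 333 of Adipoq (0 to 40 in the others), 1023 of Cfd (1 to 109) and 1827 of Car3 (7 to 160). These were named after their values were seen. Other markers of that list did not follow, such as Pnpla2, with 6826 reads there and 7609 in germ-free mouse 5, and Acvr1c, with 1710 and 1819. Over the 12 adipocyte markers, 8 were tested and 2 were called lower, Acvr1c and Plin4 (lost without germ-free mouse 3 or 4 or humanized mouse 1, 2, 3, 4 or 5), with sums of 181 to 276 CPM in germ-free and 165 to 226 CPM in humanized mice. Of 10 hepatocyte markers 4 were tested, only Tat was called higher (LFC 0.64), and Fgb had no read. The Tat call was lost without any 1 germ-free mouse, without humanized mouse 2 or 4, and with upper-quartile, total-count or epithelial-gene scaling. The part of fat in the Hp value was not tested.

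Ltf, at chr9:111019292-111042766 on the plus strand, was the gene with the largest LFC of the 6. It had 0, 8, 6, 2 and 6 reads in germ-free mice 1 to 5, and 16, 27, 23, 22, 28 and 22 reads in humanized mice 1 to 6. Every humanized mouse was above every germ-free mouse. The means were 0.0272 ± 0.0219 RPKM (SD, n = 5) and 0.197 ± 0.0406 RPKM (SD, n = 6), an LFC of 2.85 (standard error 0.49, FDR = 7.94e-12). The gene reached the filter's level in 6 humanized and 0 germ-free mice, so it entered the test through the group in which it was high. It remained called with the quasi-likelihood test and DESeq2, under every scaling and without any single mouse, with LFC values from 2.53 to 3.23. With a replicate block it was not called (FDR = 0.0111). These fits use the same counts, so they are no separate support for the call. Its level stayed low even in humanized mice, where its mean RPKM was at percentile 9.60 of the tested genes.

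**Figure D3:**
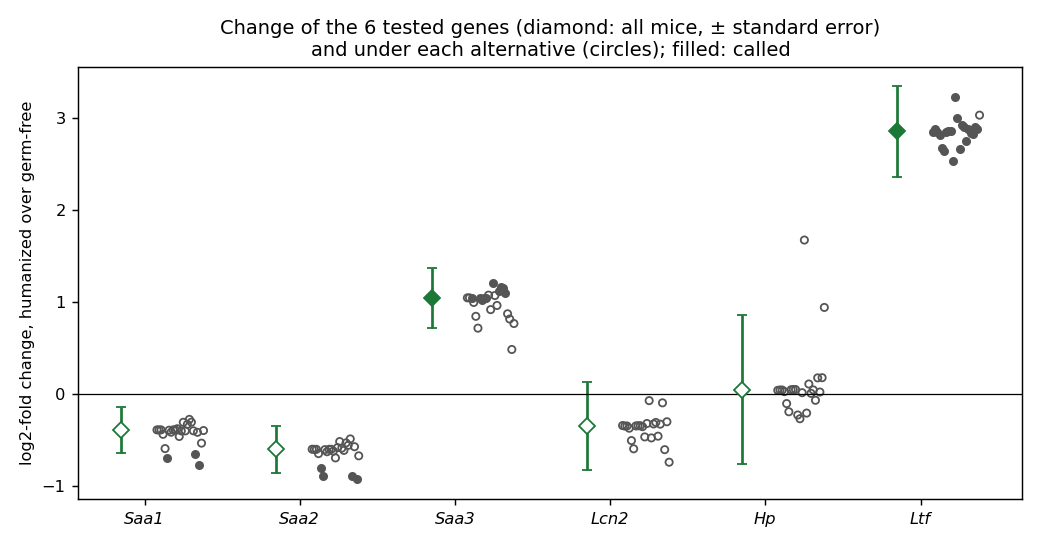
Log2-fold change of humanized over germ-free mice for the 6 tested genes with all mice (diamonds, ± standard error) and under each alternative (circles), filled where called at that setting's threshold. Ltf lies between 2.53 and 3.23 and Saa3 between 0.48 and 1.21, Saa1 and Saa2 are negative throughout, and Hp lies on both sides of 0.

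Across all 11 mice, the genes whose log2 CPM followed each member most closely are given as a description, since the mice share the group difference and tissue makeup. For Saa1 these were Tom1l2 and Plscr4 (Pearson r = 0.98 for each), and for Saa2 they were Ndnf (0.94) and Kat6a (0.93). Saa3 was followed by Cables1 and Wdtc1 (0.93 for each). Lcn2 was followed by Serpina3n, a protease inhibitor of the acute phase, and by the chemokine receptor gene Ackr1 (r = 0.95 for each). For Ltf they were Pdss2 (0.97) and Pafah2 (0.95), and for Hp they were Invs (0.86) and Gm17619 (0.85).

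Genes upstream of the 8 were called in both directions. Of 17 cytokines that induce acute-phase genes 15 were in the table and 5 were tested, of which Tnf (LFC 1.22, FDR = 0.000181) and Il1b (LFC 1.86, FDR = 0.00242) were called higher. Il1b was not called with the quasi-likelihood test (FDR = 0.0162) or without germ-free mouse 2, 3 or 5 or humanized mouse 2. With libraries scaled to the 11 epithelial genes neither was called (FDR = 0.0167 for Tnf and 0.0171 for Il1b). The other 3 tested cytokine genes, Lif (LFC −0.30), Il1a (LFC 0.44) and Il11 (LFC 0.09), were not called. The 10 cytokines that were not tested had 2 to 95 reads each over all mice, among them 2 of Il22 and 10 of Il17a, all in humanized mice, and 20 of Csf3 in germ-free against 3 in humanized mice. Of 16 cytokine receptors the exact test called none higher (2 at an unadjusted p below 0.05) and 6 lower. DESeq2 called 2 higher, Il22ra2 (FDR = 0.00483) and Il17ra (FDR = 0.00631), and the exact test called 1 or 2 higher without germ-free mouse 4 or humanized mouse 2, 3, 4 or 5. The lower receptors included the shared IL-6 family subunit Il6st (LFC −0.65, FDR = 2.94e-08), Lifr (LFC −1.32), Il1rl2 (LFC −1.29) and Il1r1 (LFC −0.49). Of 17 signalling factors 4 were called higher and 1 lower, or 2 higher and 4 lower with total counts and with epithelial-gene scaling. Zc3h12a, an RNase that limits inflammatory transcripts, had an LFC of 1.65 (FDR = 1.22e-29), and Nfkbiz, an NF-kB cofactor, had 1.36. Hnf4a (LFC 0.43) and Socs3 (LFC 0.62) were called higher with TMM but under neither of those scalings, and the C/EBP gene Cebpd was lower (LFC −0.90, FDR = 0.000595).

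Most listed epithelial genes known to respond to IL-22 or IL-17 rose in humanized mice. The list was drawn up with earlier results of these data known, so its counts were partly set in advance. Among its genes, Nos2, Duox2 and Duoxa2 are reported by the paper as upregulated in these mice. Zc3h12a, Nfkbiz, Socs3 and Steap4 also count in other lists. Of 22 tested genes in that list 17 were called higher and 1, Tgm2, was called lower (LFC −0.50, a call lost with the quasi-likelihood test and without any 1 of 8 mice, all but germ-free mouse 2 and humanized mice 3 and 5), with a median LFC of 1.51. The 3 epithelial markers called higher moved in the same direction, at LFC values of 0.45 to 0.48, and their part in this was not tested. For 16 of the 22 genes the groups did not overlap and humanized mice were higher. The smallest FDR belonged to Nos2 (LFC 3.85), Duoxa2 (LFC 3.60), Duox2 (LFC 1.67) and Zc3h12a. Nos2 makes nitric oxide, and Duox2 with its maturation factor Duoxa2 makes hydrogen peroxide. The antimicrobial lectin genes Reg3b (LFC 3.26) and Reg3g (LFC 2.12) were called as well.

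Other acute-phase and S100 genes did not move in 1 direction. Of 36 other acute-phase genes 20 were tested, with 4 called higher, 2 called lower and a median LFC of −0.35. The metalloreductase gene Steap4 (LFC 2.99, FDR = 1.06e-14), the LPS co-receptor gene Cd14 (LFC 0.70) and the ferritin genes Ftl1 (LFC 0.63) and Fth1 (LFC 0.68) were higher. Fibronectin, Fn1 (LFC −1.15), and transferrin, Trf (LFC −1.05, not called without germ-free mouse 4), were lower. Neither was called with the quasi-likelihood test (FDR = 0.0123 for Fn1 and 0.0153 for Trf). Of 15 other S100 genes 11 were tested, with the calcium-binding S100g (LFC 3.53, FDR = 2.38e-23), S100a14 (LFC 0.79) and S100a13 (LFC 0.41) higher and the glial S100b (LFC −1.75) lower. The split was 2 higher and 3 lower with total counts and with epithelial-gene scaling, and 3 higher and 3 lower with upper-quartile scaling. The S100a13 call was lost without germ-free mouse 1, 2 or 3.

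Receptors of the secreted proteins also went both ways. Of 14 tested genes, 3 were higher, namely Tlr2 (LFC 1.42, FDR = 2.71e-12), Bsg (LFC 0.47) and the lipoprotein receptor gene Scarb1 (LFC 0.41, a call lost on leaving out germ-free mouse 1, 2, 4 or 5 or humanized mouse 1, 2, 3 or 4). A further 3 were lower: the lactoferrin-binding lectin Itln1 (LFC −1.55, FDR = 9.58e-09), Tlr4 (LFC −0.45) and the haemoglobin–haptoglobin receptor gene Cd163 (LFC −1.58). The split was 2 higher and 5 lower with total counts, and 1 higher and 4 lower with epithelial-gene scaling. Of 14 squamous epithelium markers, which the anal margin could add, 6 were tested and 1 was called higher, Sprr1a (LFC 3.55). The other 5 were not called, with LFC values of −1.02 to −0.11. Krt5, below the filter, had 488 reads in germ-free mouse 2, 338 in humanized mouse 2 and 0 to 8 in the others. Krt13 had 4 to 226 reads, and Sprr3 and Ivl were at 0 in every mouse. The part of squamous tissue in the samples was not tested.

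**Figure D4:**
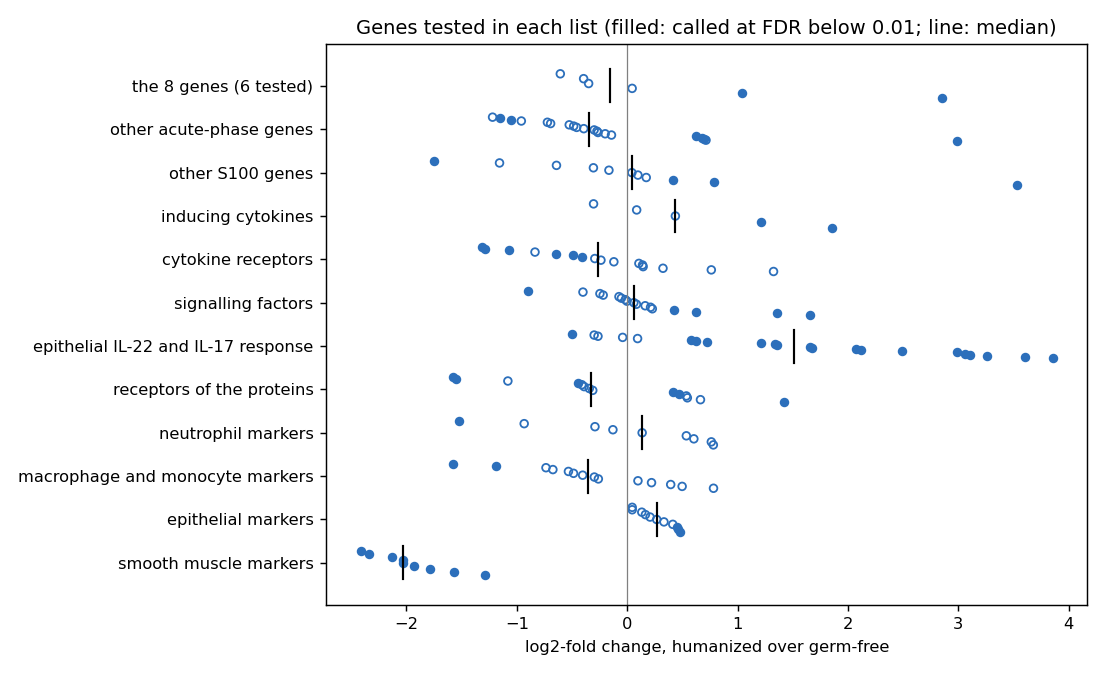
Log2-fold change of humanized over germ-free mice for the tested genes of each list (horizontal axis), filled where called at FDR below 0.01, with a line at the median of each list. The epithelial IL-22 and IL-17 response list lies mostly to the right of 0 with a median of 1.51, while the 6 tested of the 8 genes have a median of −0.15 and the 9 smooth muscle genes all lie to the left. All lists were drawn up with earlier results of these data known.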

How the data were processed

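The data are colonic RNA-seq libraries of 5 germ-free and 6 humanized mice, grouped by the treatment label. The authors prepared polyA libraries with a TruSeq kit, sequenced 101 bp paired ends, aligned them to mm10 with TopHat (version 2.1.0, running Bowtie version 2.2.3), and counted reads per gene with featureCounts (Subread 1.4.6-p5, from the submitters' processing notes). The deposited values are raw read counts of 43346 genes with a gene length, and no other normalization. The strand, multimapping and fragment settings are not given in the sources used here, so reads of near-identical paralogs may be dropped or split.

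Following the study's methods, counts were filtered with filterByExpr (minimum count 10, minimum total 15), TMM-scaled and tested with the exact test of edgeR 4.0.16 (R 4.3.3), with Benjamini–Hochberg FDR over all 19863 genes. Standard errors come from the quasi-likelihood fit. RPKM used the deposited length, and log2 CPM for correlations a prior count of 2. Ratios within a mouse used counts plus 0.5 and exact permutation over all splits. Counts per mouse limit the genes below about 100 reads, and floors cover counting error only. Alternatives were the quasi-likelihood test, DESeq2 1.42.0, RLE, upper-quartile, total-count and epithelial-gene scaling, other filters and thresholds, other offsets, leaving out each mouse and a replicate block.

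Members and gene lists were chosen with earlier results of these data known. Named genes are the 8 members, up to 4 genes of each list with the smallest FDR among those called, and the 2 genes most correlated with each member. Fn1, Trf, Socs3, Scarb1, Tgm2, Reg3b, Reg3g, Lif, Il1a, Il11, Csf3, Il22, Il17a, Il22ra2, Il17ra, Csf3r, Il1r2, Ly6c2, Elane, Ly6g, Fgb, Sprr3, Ivl, Adipoq, Cfd and Car3 were named after their values were seen, as was Cd163 among the receptors. Krt5, Krt13, Pnpla2, Retnlg and Cxcr2 were also named after their values were seen. Il36a and Il36g had no match, and Adgre1 was matched by its gene ID. Coding sequences are from GENCODE transcripts of GRCm38 and upstream sequences from RefSeq. Hp had no RefSeq promoter entry. Replicate numbers of the labels refer to different animals. No sequencing batch is named in the labels or methods.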

Additional observations from a re-analysis of the deposited data

Results flagged for a closer look

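Of 22 sets of values, 1 for each group and quantity, 3 held a mouse far from the rest of its group, and chance alone gives about 1 in 20. Humanized mouse 5 had 86.2 RPKM of Saa2, and the other humanized mice had 25.9 to 46.7 RPKM. Germ-free mouse 4 had 0.894 RPKM of Hp, and the other germ-free mice had 0 to 0.216 RPKM. Humanized mouse 6 had a log2 ratio of Saa1 plus Saa2 to Saa3 of 3.98, and the other humanized mice had 4.69 to 5.00.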

How the results depend on the processing

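The 2 genes called higher became 1 with the quasi-likelihood test, DESeq2, upper-quartile, total-count and epithelial-gene scaling and a minimum of 10 counts in every mouse, 4 with no filter, and 1 to 2 without single mice. Without humanized mice 5 and 6, or without germ-free mouse 1, the count of 2 includes S100a9, which passed the filter there through humanized mice alone and whose lowest humanized or highest germ-free values were left out, so it is no support for a call. The 0 genes called lower became 1 with total counts (Saa2, LFC −0.81, FDR = 0.00336), 2 with epithelial-gene scaling, 2 without humanized mice 5 and 6, and 0 to 2 without single mice. Ltf was called and Lcn2 was not in all of these in which they were tested. Saa3 was not called with upper-quartile (FDR = 0.0104), total-count (LFC 0.84, FDR = 0.0242) or epithelial scaling (LFC 0.71, FDR = 0.0496). Relative to the median of all genes, its LFC was 1.02 and 0.95 under the latter scalings. Hp was −0.11 with total counts, −0.20 with epithelial scaling and −0.27 to 1.67 without single mice. The S100a8 to S100a9 log2 difference, −0.18 with an offset of 0.5 and set by that offset in germ-free mice, was 0.35 with an offset of 0.1 and −0.78 to 0.36 without single mice. Of the 9 smooth muscle genes, 5 were called lower with the quasi-likelihood test. Among the named list genes, Il1b, Mrc1, Cd163, Tgm2, Scarb1, Trf, Fn1, Reg3g, Plin4 and Tat were not called with it. Genes with under 100 reads per mouse, all but the Saa genes, are limited by depth.

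Mice with the same number deviated together with r of −0.05, −0.13, 0.09, 0.09 and −0.07, so the numbers do not pair them. With a replicate block, 0 genes were called higher and 0 lower (Ltf LFC 3.03, FDR = 0.0111; Saa3 LFC 0.76, FDR = 0.102), and calls over all genes were 506 higher and 506 lower, against 1401 and 1298 in the same test without the block. The log2 ratio of Saa1 plus Saa2 to Saa3 differed by −1.30 within the 5 numbered pairs, which leave out humanized mouse 6. An exact test that flips the sign of each pair's difference gave p = 0.0625, the smallest that 5 pairs allow.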
